A study of Mus musculus with 3 samples.

Results

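The subject here is a group of 10 integrin genes, Itga4, Itga5, Itga6, Itgal, Itgam, Itgav, Itgax, Itgb1, Itgb2 and Itgb7, followed through 3 RNA-Seq libraries of cells from mice with experimental autoimmune encephalomyelitis (EAE), a model of multiple sclerosis. The genes were chosen by name as integrins of monocyte entry and retention, and all 10 were found among the 22238 genes listed in every library. Bone marrow monocytes were sorted as CD45+ CD11b+ Ly6Chi Ly6G- CD11c- cells, spinal cord monocytes as CD45+ CD11b+ CD64+ Ly6Chi Ly6G- cells, and spinal cord monocyte-derived antigen-presenting cells (APCs) as CD45+ CD11b+ CD64+ Ly6Clow/- Ly6G- cells. All mice were wild-type females of the C57BL/6J strain, 10 to 12 weeks old, given myelin oligodendrocyte glycoprotein peptide in complete Freund's adjuvant and 250 ng of pertussis toxin at 2 and 24 hours. No group was left without immunization. Tissue was taken at days 14 to 15. Cells of 13 mice from 2 experiments were combined into the marrow library, and cells of 18 mice from 3 experiments into each spinal cord library.

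Every population was therefore 1 library, and no difference between populations has a replicate check. The intervals given reflect counting error alone, and they are too narrow where PCR copied the same molecule. Over the common genes the bone marrow library held 32115707 reads, that of spinal cord monocytes 26116588 and that of APCs 28209327. Levels are TPM, the share of transcripts corrected for effective length, rescaled to the same sum over the common genes, with a 95% Wilson interval of the gene's share of reads. Log2 ratios were taken from the estimated reads, scaled by median-of-ratios size factors, with a 98% interval. A gene was called higher or lower if the whole of that interval was past a 2-fold change and either library of the pair had more than 3 TPM of it. Since each library pools many cells, fewer cells of a kind and less RNA per cell cannot be told apart. Cord and marrow cells were also prepared differently before the sort, so tissue and preparation cannot be told apart in ratios against the marrow.

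Integrins are receptors made of 1 alpha and 1 beta chain that span the membrane and hold cells to other cells or to the matrix. Chemokine and other signals open the resting receptor from inside through talin and kindlin, and the opened receptor arrests a rolling monocyte on the vessel wall. The beta 2 chain pairs with the alpha chains of CD11a, CD11b and CD11c and binds ICAM proteins, while the alpha 4 chain pairs with beta 1 or beta 7 and binds VCAM-1, fibronectin or MAdCAM-1. Antibody against the alpha 4 chain is a treatment of multiple sclerosis. CD11b is the product of Itgam and CD11c that of Itgax, so these 2 members also belong to the gates: every population was sorted as CD11b positive, and the bone marrow cells as CD11c negative.

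The monocyte labels were checked first. All 6 monocyte markers (Ly6c2, Ccr2, Csf1r, Fcgr1, Plac8 and Itgam) were over 3 TPM in every library. Itgam, as CD11b, was in the gate of every population, and Fcgr1 (CD64) in that of both cord populations. Ly6C, the product of Ly6c2, was gated as high in both monocyte populations and as low or negative in APCs. The values of these genes, and the fall of Ly6c2 in APCs, therefore do not check the labels independently of the sort. The summed level was 10339 TPM in the marrow library, 8889 TPM in cord monocytes and 3488 TPM in APCs. Ly6c2, which encodes the sorting marker Ly6C, led the list in both monocyte libraries and Csf1r, the receptor for M-CSF, led it in APCs.

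All 10 integrin genes were above 3 TPM in both spinal cord libraries and 9 of them in bone marrow monocytes, Itgax being the exception. Summed over the members, the level was 2116, 2115 and 2276 TPM in the marrow, cord monocyte and APC libraries, so the total was nearly level while its makeup moved. From marrow to cord monocytes, 2 of 10 members were called higher (Itgax and Itga5) and 2 lower (Itga4 and Itgb7), against 13.6% and 11.0% of all 10072 genes tested in that comparison. From cord monocytes to APCs, 1 of 10 was called higher (Itgax) and 1 lower (Itga5), against 1.94% and 1.66% of 9734 genes. The median log2 ratio of the members was 0.46 in the first comparison, where that of all genes tested was -0.17. In the second it was -0.10, with -0.03 for all genes.

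**Figure D1:**
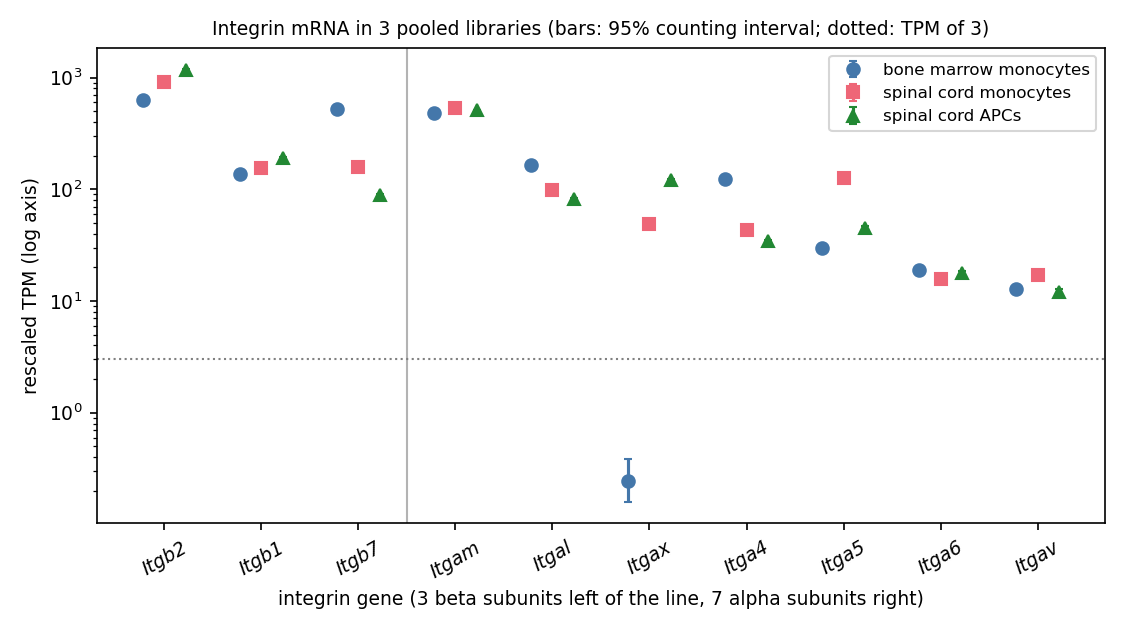
Rescaled TPM (log axis) of 3 beta and 7 alpha integrin genes, with 1 point for each of 3 pooled libraries and bars for the 95% counting interval. Itgax spans 0.247 TPM (marrow) to 121 TPM (APCs), and Itga4 and Itgb7 are highest in bone marrow monocytes.

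Among the beta chains, Itgb2 (ENSMUSG00000000290.13, chromosome 10 of GRCm38, 77530252 to 77565708) was the most abundant member in every library. It stood at 626, 919 and 1175 TPM in marrow monocytes, cord monocytes and APCs, and in APCs it ranked 132 among the common genes by TPM. Marrow was lowest and APCs highest, and no 2 of the counting intervals overlapped. The log2 ratio was 0.87 (98% interval 0.84 to 0.90) between the monocyte libraries and 0.25 (0.23 to 0.28) between APCs and spinal cord monocytes, and neither was past the call. Set directly against bone marrow monocytes, APCs had a log2 ratio of 1.14 (1.12 to 1.17), and Itgb2 was called higher, as were 14.0% of 10190 genes. That call was lost with total reads, with TPM ratios (log2 ratio 0.91) and with an assumed coefficient of variation of 0.2 between libraries. Itgb1 (ENSMUSG00000025809.15, chromosome 8, 128685654 to 128733200), the beta chain shared by most matrix receptors, had 138, 154 and 189.6 TPM in the same order, with log2 ratios of 0.47 and 0.30 that were not called.

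The largest drop among the members was that of Itgb7 (ENSMUSG00000001281.10, chromosome 15, 102215995 to 102231944), whose product joins alpha 4 in the receptor for the gut addressin MAdCAM-1 and joins alpha E in CD103. Its reads went from 20780 in bone marrow monocytes to 5377 in spinal cord monocytes and 4175 in APCs, or 519, 159 and 88.3 TPM. Marrow stood well above both cord libraries. The first comparison gave a log2 ratio of -1.49 (98% interval -1.54 to -1.44), or 2.81-fold lower, with 7.78% of the genes tested lying below it. The call was lost with the same assumed variation of 0.2. The second gave -0.51 (-0.58 to -0.44), which was not called, and -0.77 when reads were divided by effective length. The TPM ratio of Itgb7 to Itgb1 was 3.75 in the marrow, 1.03 in cord monocytes and 0.466 in APCs, so by TPM the order of these 2 beta chains was reversed in APCs. The effective length of Itgb7 was 1748 bases in cord monocytes and 2268 in APCs, which enters that ratio.

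Itga4 (ENSMUSG00000027009.18, chromosome 2, 79255426 to 79333123) encodes the alpha 4 chain, partner of both of those beta chains. It had 24636, 7454 and 6876 reads, or 123, 43.0 and 34.7 TPM, in bone marrow monocytes, cord monocytes and APCs. Here too the marrow library was the high one and the 2 cord libraries lay close together. The log2 ratio was -1.27 (98% interval -1.31 to -1.22) for the monocyte comparison and Itga4 was called lower, 2.40-fold, a call that was likewise lost with an assumed variation of 0.2. Between APCs and cord monocytes it was -0.26 (-0.32 to -0.21), not past the call. The TPM of Itgb7 was 4.22, 3.69 and 2.55 times that of Itga4 in the 3 libraries. The antisense gene Cerkl overlaps 1124 exon bases of Itga4 and was given only 77, 14 and 8 reads, and 1393 of the 13925 distinct 25-base stretches of Itga4 transcripts occur in other genes. Vcam1, which encodes an alpha 4 ligand, had 0.681 TPM in the marrow cells, 10.8 TPM in cord monocytes and 10.97 TPM in APCs.

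Both genes of this heterodimer were called lower in the same comparison, so the bases before their starts are shown. RefSeq promoter sequences (GRCm38.p6) were at hand for 7 of the 10 members, and each window runs from 160 to 11 bases before the RefSeq start, 150 bases that hold no exon of GENCODE M21. Capitals mark matches, on either strand, to 6 short motifs: the PU box GAGGAA, the GC box GGGCGG, the AP-1 motif TGANTCA, the CCAAT box, the TATA box TATAAA and the RUNX core TGTGGT, none of which contains another. The Itga4 window is chr2:79255266-79255415 on the plus strand and the Itgb7 window chr15:102231946-102232095 on the minus strand.
Itga4: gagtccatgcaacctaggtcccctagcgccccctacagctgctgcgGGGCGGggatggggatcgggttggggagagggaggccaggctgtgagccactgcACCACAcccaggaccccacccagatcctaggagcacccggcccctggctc
Itgb7: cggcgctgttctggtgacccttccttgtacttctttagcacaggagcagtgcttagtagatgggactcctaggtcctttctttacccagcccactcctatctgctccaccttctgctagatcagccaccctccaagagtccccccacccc
The Itga4 window held a GC box and a RUNX core and was 69.3% G or C, whereas the Itgb7 window, at 56.0% G or C, matched none of the 6 motifs. Among all 32851 promoter windows of that length, 27.6% had a GC box and 8.47% a RUNX core. The windows shared no motif, and a match is a description and not a binding site.

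The alpha partners of beta 2 followed 3 different courses. Itgam (ENSMUSG00000030786.18, chromosome 7, 128062640 to 128118491), the CD11b gene, was level at 485, 533 and 510.0 TPM, from 45128, 44871 and 46432 reads in marrow monocytes, cord monocytes and APCs. Its log2 ratios were 0.45 and -0.10, neither called, and the second changed sign, to 0.01, on reads divided by effective length. A read-through transcript annotated as Gm49368 covers 3450 exon bases of Itgam, and 69.3% of the 25-base stretches of Itgam transcripts also occur in other genes. Gm49368 was given only 241, 343 and 321 reads. Itgal (ENSMUSG00000030830.18, chromosome 7, 127296260 to 127335138), the CD11a gene of LFA-1, had 163.5, 98.4 and 82.2 TPM. Its highest level was in the marrow and its log2 ratios were -0.44 (98% interval -0.48 to -0.40) and -0.27 (-0.32 to -0.22), both short of the call.

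Itgax (ENSMUSG00000030789.9, chromosome 7, 128129547 to 128150657), the CD11c gene, had 20 reads in the marrow library, 2816 in cord monocytes and 9379 in APCs. In TPM these were 0.247 (95% interval 0.160 to 0.382), 48.9 and 121. The 3 libraries were far apart, and no other member had such a span. The log2 ratio was 7.55 (98% interval 6.87 to 8.36), or 187-fold, between the monocyte libraries, where 122 of 10072 genes had a larger one. Between APCs and cord monocytes it was 1.59 (1.52 to 1.66), or 3.01-fold, and 145 of 9734 genes had a larger one. The call in both held on reads divided by effective length, with log2 ratios of 7.80 and 1.39. With an assumed coefficient of variation of 0.2 or 0.4 between libraries, the first call held and the second was lost. The marrow cells were gated against CD11c protein, and the part of that gate in the first ratio was not tested. The second ratio compares populations for which CD11c was not in the gate. Of the 25-base stretches of Itgax transcripts 11.7% occur elsewhere, all in the neighbouring Itgad, the CD11d gene. Itgad had 2 reads in each library.

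Itgax lies next to Itgam on the same strand and encodes a chain with the same partner. For this contrast of a changing and a level neighbour, the corresponding windows, chr7:128129390-128129539 for Itgax and chr7:128062480-128062629 for Itgam, both on the plus strand, are given with the same capitals.
Itgax: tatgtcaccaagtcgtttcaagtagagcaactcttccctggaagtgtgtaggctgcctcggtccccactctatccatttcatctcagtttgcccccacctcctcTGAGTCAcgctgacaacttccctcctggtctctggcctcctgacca
Itgam: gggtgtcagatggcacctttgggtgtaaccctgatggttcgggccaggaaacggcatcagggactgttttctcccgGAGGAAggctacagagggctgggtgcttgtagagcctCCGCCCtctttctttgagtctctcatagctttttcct
The Itgax window had an AP-1 match that begins 56 bases before the start, the only one among the 7 members, and 4.36% of all windows had one. The Itgam window had a PU box and a GC box, and 14.2% of all windows held a PU box. No motif was common to both.

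The CD11 genes together show the makeup of the beta 2 partners at the RNA level. Itgam supplied 74.8% of the summed TPM of Itgal, Itgam, Itgax and Itgad in the marrow, 78.3% in cord monocytes and 71.5% in APCs. The share of Itgal was 25.2%, 14.5% and 11.5%. Itgax supplied 0.0381%, 7.18% and 17.0%, so it passed Itgal only in APCs. The TPM of Itgam was 1964 times that of Itgax in the marrow library, 10.9 times in cord monocytes and 4.21 times in APCs. The TPM of Itgb2 relative to the sum of its 4 partners was 0.964, 1.35 and 1.65. These are shares of RNA and say nothing on protein at the surface.

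**Figure D2:**
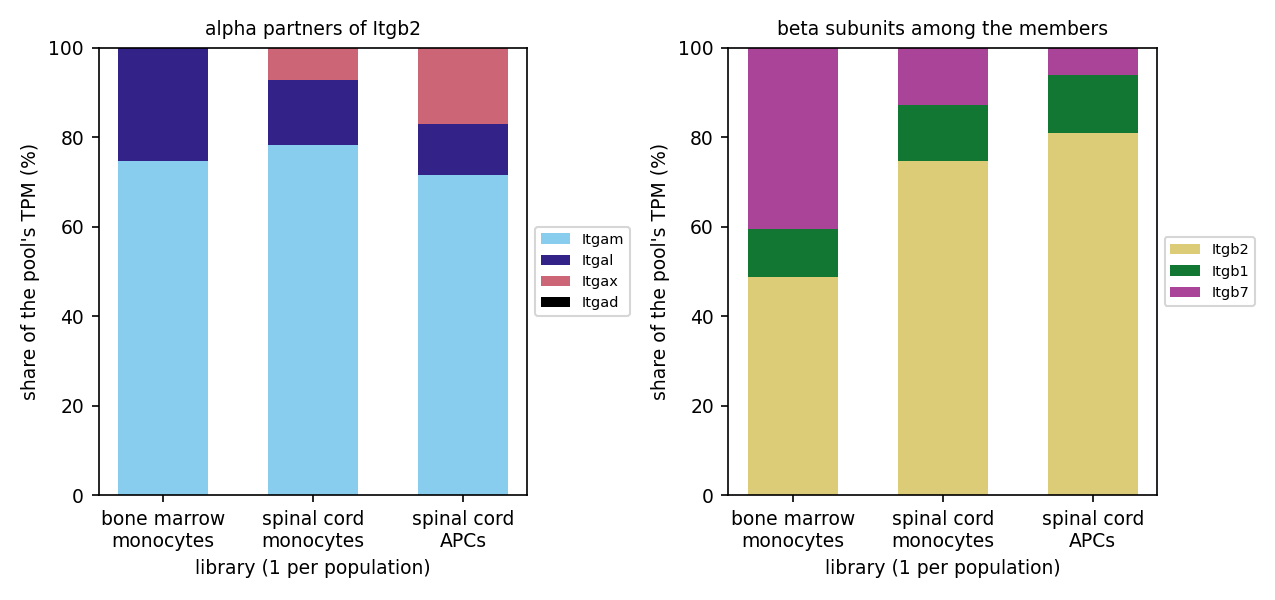
Share of TPM (%) of each alpha partner of Itgb2 (left) and of each beta gene among the members (right) in 3 libraries, 1 bar per library. The Itgax part grows from 0.0381% to 17.0%, and the Itgb7 part shrinks from 40.4% in bone marrow monocytes to 6.08% in APCs; Itgad is too small to see.

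Itga5 (ENSMUSG00000000555.8, chromosome 15, 103344286 to 103366763), the alpha chain of the fibronectin receptor alpha 5 beta 1, was the member called in opposite directions. It had 2392 reads in the marrow library, 7802 in cord monocytes and 3910 in APCs, or 29.7, 127 and 45.4 TPM. Spinal cord monocytes stood above both other libraries and the counting intervals were apart. The first log2 ratio was 2.16 (98% interval 2.09 to 2.24), or 4.48-fold higher, and the second -1.14 (-1.21 to -1.08), or 2.21-fold lower. Only 2.16% of the genes tested had a lower ratio in the second. With an assumed coefficient of variation of 0.2 the second call was lost, and with 0.4 the first was lost too. With the longer effective length of Itga5 in the APC library, 4133 bases against 3182 in spinal cord monocytes, its second log2 ratio was -1.40 per length. The levels of the fibronectin receptors crossed: the TPM of Itga4 was 4.13 times that of Itga5 in the marrow, 0.340 times in cord monocytes and 0.764 times in APCs.

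The Itga5 window, chr15:103366802-103366951 on the minus strand, is shown because the gene moved both ways.
Itga5: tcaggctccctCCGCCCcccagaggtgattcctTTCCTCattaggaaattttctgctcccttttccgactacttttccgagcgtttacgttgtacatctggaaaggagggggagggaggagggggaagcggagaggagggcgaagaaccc
It held a GC box and a PU box, as the Itgam window did. Of the 7 member windows 4 had a GC box and 2 a PU box.

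The remaining alpha genes were low and were not called in either comparison. Itga6 (ENSMUSG00000027111.15, chromosome 2, 71745616 to 71858416), whose chain binds laminin, had 19.0, 15.9 and 17.7 TPM. Its log2 ratio between the monocyte libraries was 0.05 (98% interval -0.10 to 0.19), which includes 0 and changed sign under 5 of 12 alternative settings. Itgav (ENSMUSG00000027087.11, chromosome 2, 83724397 to 83806916), whose chain binds vitronectin and latent TGF-beta, had 12.9, 17.2 and 12.1 TPM, with spinal cord monocytes highest. The second log2 ratio was -0.09 on reads (98% interval -0.21 to 0.02) and -0.43 per length, since the effective length of Itgav went from 4700 to 6440 bases between the cord libraries. The antisense gene Gm13684 overlaps 634 exon bases of Itgav, with 4 and 3 reads in the monocyte libraries.

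**Figure D3:**
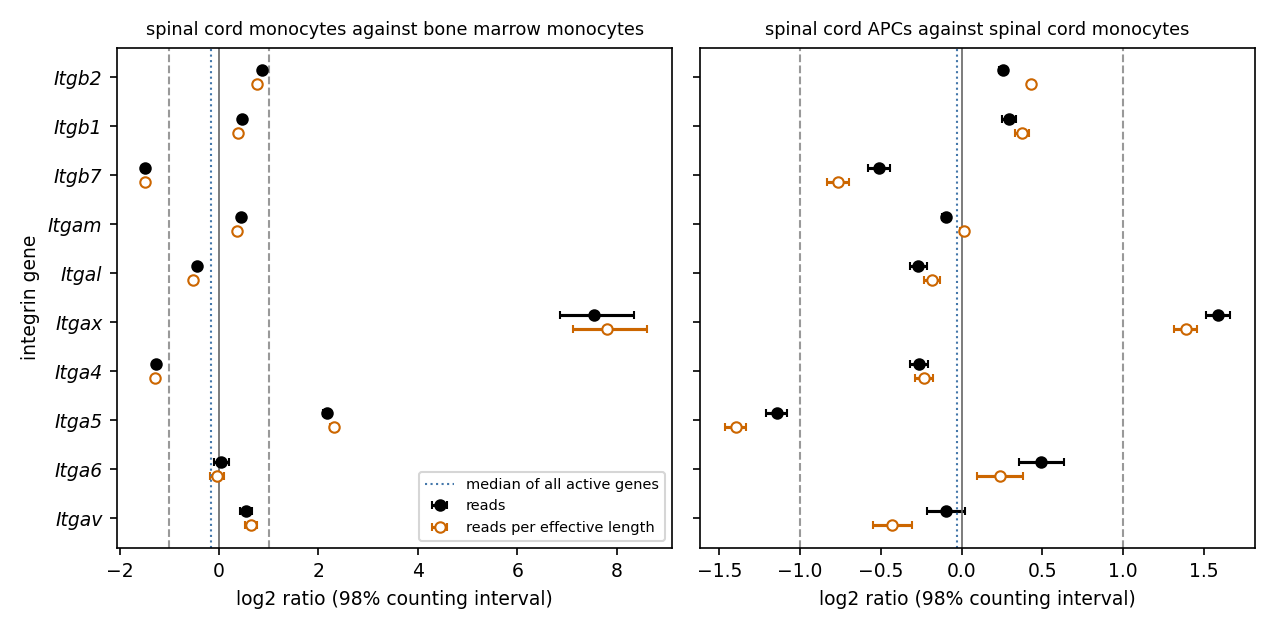
Log2 ratios of 10 integrin genes in 2 comparisons, on reads (filled) and on reads per effective length (open), with 98% counting intervals; dashed lines mark a 2-fold change and the x scales differ between panels. Only Itgax and Itga5 lie beyond the dashed lines in both, Itga5 in opposite directions.

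Because the scaling moves all ratios together, small ones depend on it. Total reads in place of size factors lowered the median of all genes by 0.16 on the log2 scale in the monocyte comparison, and size factors from active genes alone raised it by 0.18. Under that last setting Itgb2 was called higher in spinal cord monocytes, with a log2 ratio of 1.05. Over the 12 alternatives in that comparison the log2 ratio of Itgax ran from 5.32 to 7.80 and that of Itga5 from 1.94 to 2.34. Itga4 ran from -1.51 to -1.09 and Itgb7 from -1.71 to -1.32.

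Genes outside the group were then read from fixed lists. Of 17 other integrin subunit genes, 4 passed 3 TPM in at least 1 library. Itgb5, the beta chain that pairs with alpha V, had 29.98, 148 and 178 TPM, rising with a log2 ratio of 2.53 (98% interval 2.44 to 2.62) into spinal cord monocytes, and exceeded Itgav in every library. Itga1, a collagen receptor chain, was called lower in spinal cord monocytes (20.4 TPM, then 5.97 and 4.33 TPM), as was Itgb3, the beta chain of the platelet and vitronectin receptors (11.6, 0.989 and 1.67 TPM). Their log2 ratios were -1.81 and -3.23. Itgae, the other alpha partner of Itgb7, had 1, 44 and 243 reads, with 3.24 TPM in APCs against 34.7 TPM for Itga4, so alpha 4 remained the main alpha partner of Itgb7 by RNA. Itgae was called higher in APCs. Megakaryocyte and platelet markers were lower beside Itgb3: the 5 genes summed to 27.3 TPM in the marrow library, led by Ppbp at 21.6 TPM, and to 1.04 and 0.925 TPM in the cord libraries, with Gp1ba at 0 reads in both. Their part in the Itgb3 result was not tested.

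Genes whose products open integrins and tie them to actin were called in both directions. Of 46 activation and adaptor genes, 36 were active (over 3 TPM) in the monocyte comparison. Of these, 7 (19.4%) were called lower and 4 (11.1%) higher, where all genes tested gave 11.0% and 13.6%, and their median log2 ratio was -0.25 against -0.17 for all genes. Vcl (vinculin, which couples talin to actin) fell from 99.4 to 7.38 TPM, with a log2 ratio of -3.44 (98% interval -3.58 to -3.31). Tln1 (talin-1, the direct activator) went from 371 to 139 TPM, a log2 ratio of -1.10 (-1.12 to -1.07), and had 145.6 TPM in APCs. With size factors from active genes the list had 4 genes called lower and 5 higher, beside 8.49% and 15.1% of all genes, and Tln1 was no longer among them. With an assumed coefficient of variation of 0.2 it had 2 called lower, Vcl and Rasgrp2. Fermt3 (kindlin-3, which works with talin in blood cells) was not called and had 244, 165 and 201 TPM. The 4 called higher were Src, a kinase of adhesion signalling, Slc3a2, the CD98 heavy chain that binds beta tails, Plaur, the urokinase receptor, and Actn1, an actin crosslinker. Src went from 18 reads to 2181 and 3504, Slc3a2 from 52.3 to 443 TPM and Plaur from 132 to 732 TPM. In APCs against spinal cord monocytes, of 37 active genes 1 was called higher (2.70%) and 0 lower by the same counting rule, near the 1.94% and 1.66% of all genes tested. The gene called was Actn1, at 3.50, 14.1 and 39.5 TPM over the 3 libraries. That call was lost with an assumed coefficient of variation of 0.2 or 0.4. A plain 2-fold change of the reads also passes Rasgrp2, a guanine exchange factor upstream of talin, at a log2 ratio of -1.27 (-1.60 to -0.95). Rasgrp2 was picked out after its values were seen.

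RNA of several ligands was present in the same pooled libraries. Of 32 ligand genes, 16 were active in the monocyte comparison, with 8 called higher (50%) and 2 lower (12.5%), where all genes tested gave 13.6% and 11.0%. The median log2 ratio was 1.58 against -0.17 for all genes. The largest ratios were those of Spp1 (osteopontin, bound by alpha V and alpha 4 receptors) at 6.91, Cdh1 (E-cadherin, the ligand of alpha E beta 7) at 4.35, Vcam1 at 4.32 and Thbs1 (thrombospondin-1) at 4.21. Spp1 went from 7.56 to 749 and 939 TPM. Icam1, the ligand of the beta 2 integrins, rose from 22.7 to 198 TPM and had 151 TPM in APCs. The 2 called lower were Icam2 and Fn1, which encodes fibronectin, at 3706, 1333 and 1401 TPM. Both calls were lost with an assumed coefficient of variation of 0.2, and that of Icam2 also with size factors from active genes. Icam1, Icam2 and Fn1 were picked out after their values were seen. In APCs against spinal cord monocytes, 0 of 17 active ligand genes were called higher and 2 lower (11.8%), beside 1.94% and 1.66% of all genes tested. The 2 were Thbs1 with a log2 ratio of -1.26 and Ltbp1 with -2.12 on 53 and 13 reads, and with an assumed coefficient of variation of 0.2 neither was called. Thy1, an adhesion ligand of the beta 2 and beta 3 integrins, had 1.65, 14.5 and 38.3 TPM. Its log2 ratio in this comparison, 1.01 (98% interval 0.80 to 1.21), was not called on reads, and per effective length it was 1.48 (1.27 to 1.68) and was called higher. Thy1 was picked out after its values were seen. The effective length given for Ltbp1 was 390 bases for cord monocytes against 5115 bases for APCs, so its level is uncertain.

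**Figure D4:**
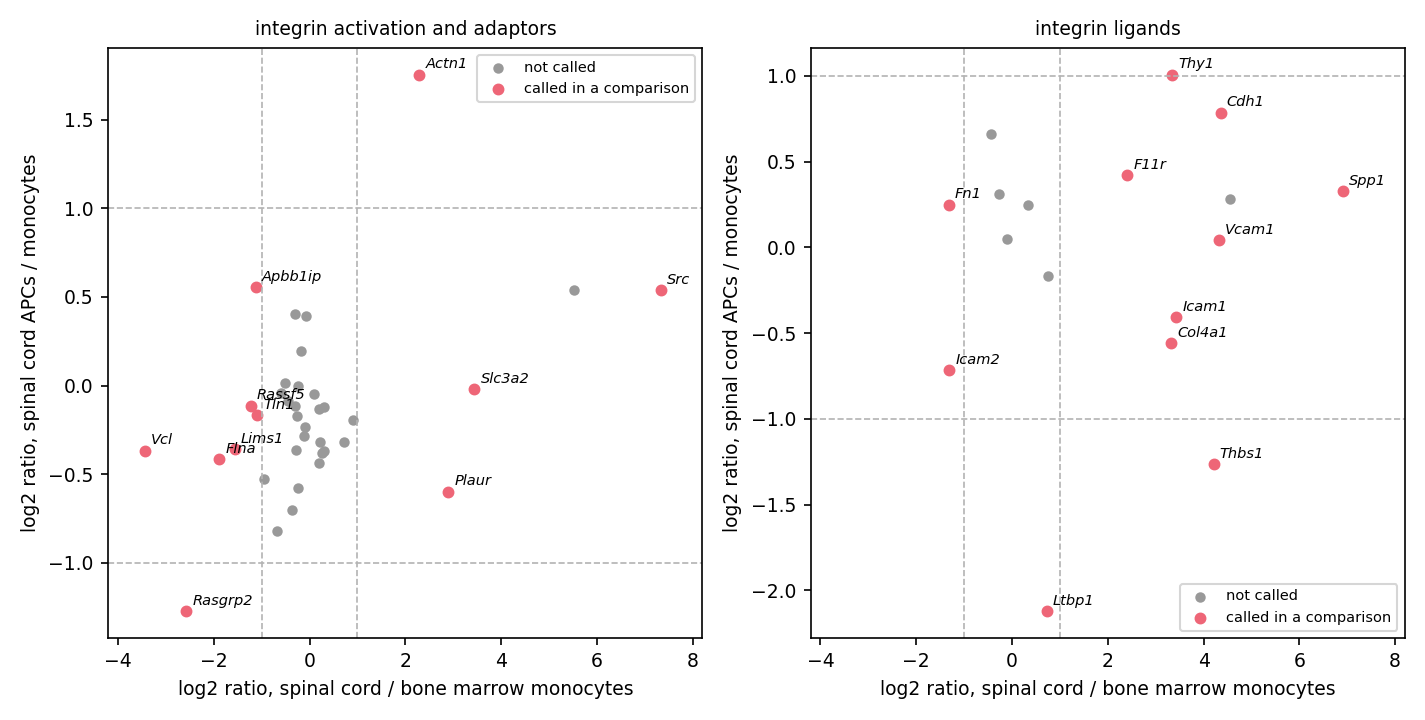
Log2 ratio in APCs against spinal cord monocytes (y) and in spinal cord against bone marrow monocytes (x) for active genes of 2 lists, with called genes in red; both axes use the spinal cord monocyte library. Vcl and Src mark the ends of the adaptor list at -3.44 and 7.33 on the x axis, and Spp1 is farthest right among the ligands.

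Markers of other cells moved with some of these values. The 8 microglia markers summed to 13.001, 111 and 286 TPM in the marrow, cord monocyte and APC libraries, led by P2ry12 at 10.1, 36.0 and 85.6 TPM, with Sall1 and Slc2a5 at 0 reads in the marrow. They were over 3 TPM for 1, 7 and 8 of the 8 genes. The 6 conventional dendritic cell markers summed to 40.8, 24.1 and 125 TPM, led by Flt3 at 37.8 TPM in the marrow, Batf3 at 11.7 TPM in cord monocytes and Ccr7 at 99.8 TPM in APCs, with 1, 4 and 5 genes over 3 TPM. The microglia sum, like Itgax, was highest in APCs. The dendritic sum was highest there too, and most of it was Ccr7. Of 4 active dendritic markers, 3 were called higher in cord monocytes than in the marrow (Batf3, Clec9a and Ccr7) and 1 lower (Flt3). Of 5 active in APCs against cord monocytes, 2 were called higher (Zbtb46 and Ccr7) and 0 lower. Of the active microglia markers, 7 of 7 were called higher in the first comparison and 7 of 8 in the second, with 0 lower in either. All genes tested gave 13.6% higher and 11.0% lower in the first comparison and 1.94% and 1.66% in the second. The 8 T and NK cell markers summed to 0.764, 36.4 and 55.1 TPM, with 0, 5 and 5 genes over 3 TPM. Of 5 active, 5 were called higher in cord monocytes than in the marrow, and 0 were called in APCs against cord monocytes. Cd3g led that list in spinal cord monocytes at 12.1 TPM and Cd2 in APCs at 16.7 TPM, Ncr1 was at 0 reads in both monocyte libraries and Cd3g at 0 in the marrow. T cells also express Itgal, Itga4, Itgb1, Itgb7 and Itgae. By TPM, Itgb1 and Itgae were highest in APCs, as the markers were, and Itgal, Itga4 and Itgb7 in the marrow. Thy1 of the ligand list was, like the T and NK marker sum, lowest in the marrow and highest in APCs. The part of T cells in the level of Thy1 was not tested. In the cord the sort took cells with high CD45, meant to leave microglia out, and with CD64, meant to leave conventional dendritic cells out, and the gates for CD11b and CD64 do not select T cells by design. The part of microglia, dendritic cells and T cells in these results was not tested.

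Progenitor and neutrophil markers, like Itga4 and Itgb7, had their highest sums in the marrow. The 6 progenitor markers summed to 634, 76.7 and 65.6 TPM, with 5, 3 and 3 genes over 3 TPM and none at 0 reads. Prtn3 led them in both monocyte libraries, at 329 and 56.6 TPM, and Cd34 in APCs at 35.7 TPM. Cd34 went against its list, at 3.03 TPM in the marrow and 12.5 TPM in cord monocytes, where it was called higher. In APCs against cord monocytes, 1 of 4 active progenitor markers was called higher (Kit) and 2 lower (Elane and Prtn3). All genes tested gave 1.94% and 1.66% there. The 8 neutrophil markers summed to 3242, 531 and 853 TPM, with 5, 7 and 7 genes over 3 TPM, and S100a9 led them at 2244, 345 and 441 TPM. Of 7 active neutrophil markers, 5 were called lower and 2 higher (Cxcr2 and Retnlg) in cord monocytes than in the marrow, and 3 higher and 0 lower in APCs than in cord monocytes, beside the all-gene shares given above. Ly6g, their defining marker, stayed at 2.57, 1.71 and 1.64 TPM. All 3 populations were sorted as Ly6G negative to leave neutrophils out. The part of progenitors and neutrophils in the levels of Itga4 and Itgb7 was not tested. The B cell marker Cd79b had 8.54, 2.55 and 3.26 TPM, and Pax5, a B cell transcription factor, was at 0 reads in the marrow. CNS-associated macrophage markers summed to 15.7, 36.8 and 51.1 TPM over 7 genes, led in the cord by Siglec1 at 22.1 and 18.3 TPM. Mrc1, at 1.45, 6.59 and 17.9 TPM, was called higher in both comparisons, as Itgax was, and the part of these macrophages was not tested. Cbr2 had 3.68, 1.05 and 0.613 TPM, with Cd209f at 0 reads in all 3 libraries and Lyve1 at 0 in the marrow and APC libraries. Endothelial markers (6 genes) had 18.1, 91.2 and 57.9 TPM, led in the cord by Flt1 at 43.1 and 26.8 TPM, with Cldn5 at 0 reads in the marrow. Their sum, like the levels of Icam1, Vcam1 and Col4a1, was lowest in the marrow. Every population was sorted as CD45+ CD11b+, and the cord cells also as CD64+, gates that do not select endothelial cells by design. The part of endothelial cells in those ligand levels was not tested. Glial and neuronal markers (6 genes) had 75.2, 49.0 and 44.3 TPM, led by Mbp at 72.7, 35.7 and 33.8 TPM, with Aqp4, Mog and Snap25 at 0 reads in the marrow.

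The genes nearest to a member were found by the distance between their 2 log2 ratios, over 3 libraries that share spinal cord monocytes, which makes this a description only. Nearest to Itgax were Pmp22, with ratios of 7.60 and 1.56, and Olfml3, with 7.65 and 1.59, the latter also on the microglia list. Usp18 (2.27 and -1.19) and Cflar (2.13 and -1.03) were nearest to Itga5. For Itga4 they were Stat5b and Hjurp, for Itgb7 Mgst2 and Sh3bp5l, and for Itgb2 Phgdh and Chd3.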

How the data were processed

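Spinal cords were digested with collagenase D and DNase I and passed through a Percoll gradient. Marrow was flushed from the leg bones, and its monocytes were enriched with an isolation kit. Cells were then sorted and pooled, libraries were made from mRNA, and 50 bp paired-end reads were produced. The authors estimated expression with Salmon (version 0.14.1 per the submitters' processing notes) on GENCODE vM22 and pooled the transcripts of each gene. The deposited TPM values are the authors' levels per effective length, scaled to a fixed sum per library. The deposited estimated counts were not normalized and were rounded to whole reads here. The deposited effective length is another unit, in bases, and enters the per-length ratios. The APC values cover 22242 genes and those of either monocyte library 54432, so another transcript set was used for APCs. Per-length ratios are given beside those on reads, but they and TPM use the effective lengths of each set. They therefore do not remove this difference, and its part in the APC values was not tested. The APC library was grouped by its title and tissue label, spinal cord, since another label names bone marrow.

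The call follows the definition of GFold in the paper's methods, computed anew from gamma distributions of the reads plus 1 (percentiles 1 and 99), with size factors for each pair of libraries. The threshold of 2 on log2 TPM in those methods was taken as log2(TPM + 1), or 3 TPM, and 4 TPM was an alternative. The call was tested on simulated data. With 1 library per population there was no test of conditions and no p-value. The members and gene lists were chosen with earlier results of these data known. The text names all members, other integrin genes over 3 TPM, Tln1 and Fermt3, the 4 most changed called genes of the adaptor and ligand lists, the leading marker of each list, and the 2 genes nearest to 5 members among genes over 10 TPM. Symbols came from GENCODE M21, which lists 99.0% of the common genes under an identical versioned identifier. No protein sequences were used here, and the summed level of 1 marker list is not reported here. R 4.3.3 with edgeR 4.0.16 gave TMM factors, and the rest was done with scipy 1.17.1, numpy 2.4.6, matplotlib 3.10.9 and pandas 2.3.3 in Python 3.11.15.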

Additional observations from a re-analysis of the deposited data

How the results depend on the processing

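No paired analysis was possible because each population was 1 library. The counts of called members were recomputed with total reads or TMM factors, reads per effective length, TPM ratios with a pseudocount of 1 or 0.1, a TPM threshold of 4 or none, a plain 2-fold change, an assumed spread between libraries, all genes of the monocyte libraries and, added after the data were examined, size factors from active genes. In the monocyte comparison and in APCs against spinal cord monocytes, only the assumed spread moved a count by more than 1.5 times. With a coefficient of variation of 0.2, 0 members were called lower in spinal cord monocytes, 0 higher in APCs and 0 lower in APCs. With 0.4 these were again 0, 0 and 0, and 1 was called higher in spinal cord monocytes, Itgax. The adaptor and ligand lists, and the members in APCs against bone marrow monocytes, were put through the same settings after the data were examined. In the monocyte comparison, size factors from active genes moved the adaptor genes called lower from 7 to 4. They moved the ligand genes called lower from 2 to 1. With no TPM threshold, adaptor genes called higher went from 4 to 9 and ligand genes called higher from 8 to 16. Members called higher in APCs against bone marrow monocytes went from 2 to 1 with total reads, either TPM ratio and either assumed spread. Log2 ratios changed sign for Itga6 between the monocyte libraries (lowest -0.26, highest 0.22) and for Itgam between APCs and spinal cord monocytes (-0.10 to 0.01), and for no other member in these 2 comparisons. On reads in place of TPM, the share of Itgal among the beta 2 partners was 27.6%, 16.2% and 13.2% in the marrow, cord monocyte and APC libraries, that of Itgam 72.4%, 78.9% and 72.2%, and that of Itgax 4.95% and 14.6% in the cord libraries. Depth limits only Itgax in the marrow, at 20 reads against a floor of 3.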

Other observations

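Of the 17 other integrin subunit genes, 13 stayed at or under 3 TPM in every library. Itga3, a laminin receptor chain, had 1, 62 and 54 reads in the marrow, cord monocyte and APC libraries, and Itgb8, a beta chain that pairs with alpha V, had 0, 43 and 20 reads. Itga9 had 2, 46 and 85 reads, or 1.16 TPM in APCs. Itga2b, the platelet alpha chain that pairs with beta 3, had 160, 12 and 25 reads, and Itgb2l had 92, 14 and 58 reads. Itga11 had at most 1 read. These genes were picked out after their values were seen.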
